A study of Mus musculus with 2 samples.

Results

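The endoplasmic reticulum folds secreted and membrane proteins, and cells sense unfolded proteins there through the transmembrane sensors IRE1, PERK and ATF6. XBP1 and the cleaved form of ATF6 raise genes for chaperones and for the degradation of misfolded proteins, whereas PERK phosphorylates eIF2 alpha and thereby raises translation of the transcription factor ATF4. ATF4 also answers amino acid shortage through GCN2, and it drives genes for amino acid uptake and synthesis. In muscle, fibroblast-type cells secrete collagen and other matrix proteins and carry a large load of such proteins through the endoplasmic reticulum.

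The genes described here are 38 genes of these responses, picked by name from 33696 genes in the count matrices. The chaperone part holds 21 genes, which are 13 chaperones and folding factors, 4 sensors and transcription factors, and 4 genes of endoplasmic reticulum-associated degradation. The ATF4 part holds 17 genes, which are 8 regulators, 5 enzymes of serine, one-carbon and asparagine synthesis, and 4 amino acid carriers. All 38 were found in the files.

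The study made 1 single-cell RNA library from mice labelled KO and 1 from mice labelled WT, both from skeletal muscle labelled ND, an abbreviation that the labels do not spell out. Each library pooled 10 tibialis anterior muscles of 5 male mice, and viable cells were sorted with propidium iodide after digestion and red cell lysis. The series title points to insulin-like growth factor I made by fibro-adipogenic progenitors (FAPs), the resident mesenchymal cells of muscle, while the labels state neither the removed stretch of the gene, nor the cells that lose it, nor the age of the mice. The labels call both samples FAPs, but the suspension held many cell types.

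Depth differed between the libraries, with 4010 UMIs (unique molecular identifiers, each standing for 1 captured transcript) in the median barcode labelled KO and 2688.5 in the median barcode labelled WT. Filtering kept 18554 of 19531 barcodes labelled KO and 10272 of 11360 labelled WT, and 61 barcode sequences occurred in both libraries. A gate on marker genes put 981 barcodes labelled KO (5.29% of those kept) and 1136 labelled WT (11.1%) in a FAP-like class. The summed FAP markers, Pdgfra, Clec3b, Dpt, Smoc2, Lum and Podn, stood at 6305 CPM (counts per 1000000 UMIs of the class) in FAP-like cells labelled KO and 8539 CPM in those labelled WT. Igf1 itself, whose product is the growth factor, stood at 417 CPM in FAP-like cells labelled KO and 433 CPM in those labelled WT, a log2 ratio of -0.05 (-0.12 to 0.01). The Igf1 levels of the class the title concerns were close in both libraries, and a 3' tag outside the removed stretch would check nothing about the genotype. In the fibroblasts of tendon, called tenocyte-like cells here, Igf1 stood at 76.3 CPM in the library labelled KO and 222 CPM in the library labelled WT.

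With 1 library per genotype there is no replicate check, and no test was run. A gene is called higher or lower here when the libraries differed at least 1.5-fold, provided that it reached 20 CPM in either library and 100 UMIs in total. Log2 ratios are KO over WT with 1 CPM added to each level, and the ranges in brackets are exact 95% intervals for counting error alone. Genotype, library, depth and pool of mice cannot be told apart.

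Promoter letters give a first view of how the members differ in sequence. XBP1 and ATF6 bind the endoplasmic reticulum stress element (ERSE), and ATF4 binds a composite element (CARE) in amino acid genes. RefSeq windows of 300 bases, from 250 before to 50 after the start of a gene, were matched by symbol to 34 of the 38 members on build GRCm38.p6. The ERSE letters, CCAAT followed 9 bases later by CCACG and searched on both strands, occurred in 7 of the 18 matched members of the chaperone part and in 0 of the 16 of the ATF4 part, against 0.119% of all 32851 windows. The stretches of these 7 genes are shown with 5 bases on each side, because 4 of the 8 chaperone members called higher in FAP-like cells are among them. Capitals mark the fixed letters of the motif, read 5′ to 3′ on the gene's strand. In Calr and Creld2 the motif lies on the opposite strand, so the capitals are its reverse complement.
Hspa5: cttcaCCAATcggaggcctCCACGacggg
Hsp90b1: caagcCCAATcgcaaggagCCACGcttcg
Calr: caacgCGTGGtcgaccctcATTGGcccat
Pdia6: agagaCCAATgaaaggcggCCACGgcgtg
Dnajc3: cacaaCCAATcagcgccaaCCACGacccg
Creld2: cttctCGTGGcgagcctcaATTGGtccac
Syvn1: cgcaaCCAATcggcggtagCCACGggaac

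On GRCm38.p6 these stretches lie at chr2:34772020-34772048 on the plus strand for Hspa5, chr10:86705633-86705661 on the minus strand for Hsp90b1 and chr8:84847070-84847098 on the minus strand for Calr. The others lie at chr12:17266486-17266514 for Pdia6, chr14:118937822-118937850 for Dnajc3, chr15:88819515-88819543 for Creld2 and chr19:6046527-6046555 for Syvn1, all on the plus strand. All 7 stretches lie before the RefSeq start. The 5′ ends of their motifs, on the gene's strand, lie 44 to 212 bases from it. The stretch of Hspa5 overlaps a UTR or coding stretch annotated in GENCODE M21. Hsp90b1 holds a second copy on the opposite strand. The shorter ERSE-II letters, ATTGG and CCACG with 1 base between them, were in 0.0365% of all windows and in 2 members, Herpud1 and Dnajb11.
Herpud1: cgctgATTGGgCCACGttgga
Dnajb11: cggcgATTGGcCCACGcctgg

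The Herpud1 stretch lies at chr8:94386372-94386392 and the Dnajb11 stretch at chr16:22857847-22857867, both on the plus strand, and the second overlaps an annotated UTR or coding stretch. CARE letters, TGATGNAA on either strand, were in 4 of the 16 matched ATF4 members (Chac1, Trib3, Slc7a11 and Asns) and in 1 of the 18 chaperone members (Herpud1), against 3.97% of all windows. Asns and 1 of the Slc7a11 sites are shown since the counts of these genes differed in direction.
Asns: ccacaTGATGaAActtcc
Slc7a11: gtggcTGATGcAAacctg

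The Asns stretch lies at chr6:7693220-7693237 and the Slc7a11 stretch at chr3:50443667-50443684, both on the minus strand. The Asns stretch overlaps an annotated UTR or coding stretch. A match describes the letters of these windows and nothing more. TGACGTCA, the cyclic AMP response element, was in 1 member (Ppp1r15a, 1.79% of all windows) and the letters TGACGTGG in none (0.676%). Atf6, Hyou1, Slc7a5 and Manf were not matched.

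In FAP-like cells both parts were higher in the library labelled KO. The chaperone part summed to 9532 CPM in FAP-like cells labelled KO and 6532 CPM in those labelled WT, a log2 ratio of 0.55 (0.53 to 0.56). The ATF4 part summed to 2607 CPM in FAP-like cells labelled KO and 1837 CPM in those labelled WT, a log2 ratio of 0.50 (0.47 to 0.54). Of the 38 members, 33 passed the floors, and 14 of these were at least 1.5-fold higher in the library labelled KO while 0 were lower. Among all 7124 genes past the floors 13.2% were called higher and 11.7% lower, with a median log2 ratio of 0.04 against 0.49 for the members. Asns, Mthfd2, Slc7a5 and Syvn1 passed the floors through the library labelled KO alone, so they had to be higher there. With no floor the median of the 38 members was 0.50.

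**Figure D1:**
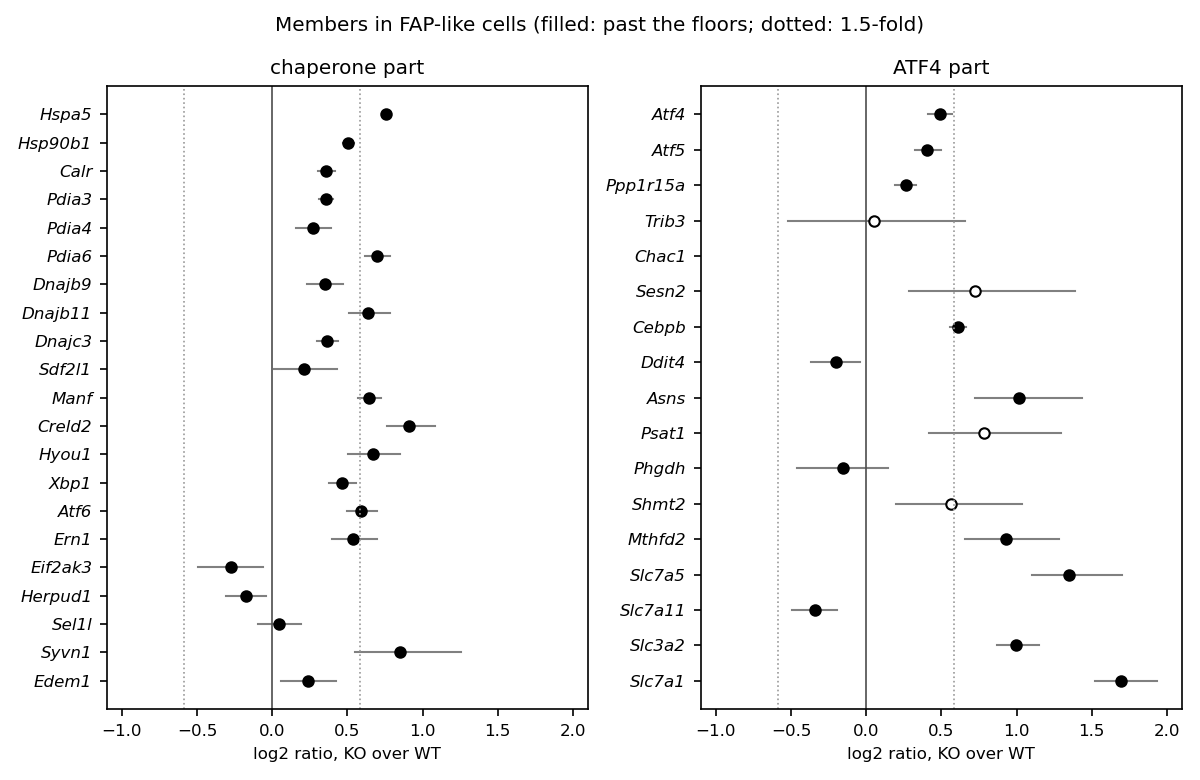
Log2 ratio, KO over WT, for each member in FAP-like cells (x axis), by part. Points are ratios, lines are exact 95% counting intervals, open points are below the floors, and dotted lines mark 1.5-fold. Chac1 has no point since it had 2 UMIs in the library labelled KO and 0 in the library labelled WT. The carriers Slc7a1, Slc7a5 and Slc3a2 lie at 1.00 or more, and Eif2ak3, Herpud1, Ddit4, Phgdh and Slc7a11 lie left of 0.

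All 13 chaperones and folding factors had ratios above 0, and 6 of them were called higher. Hspa5 (ENSMUSG00000026864) encodes BiP, the main Hsp70 chaperone of the endoplasmic reticulum, and stood at 3233 CPM in FAP-like cells labelled KO and 1914 CPM in those labelled WT. Its log2 ratio was 0.76 (0.73 to 0.78), and it held 33.9% of the UMIs of the chaperone part in the library labelled KO and 29.3% in the library labelled WT. Without Hspa5 the other 20 genes summed to a log2 ratio of 0.45, so the gap was not carried by this gene alone.

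Creld2 (ENSMUSG00000023272), a disulphide isomerase-like protein, had the largest ratio of the chaperones, with 117 CPM labelled KO and 61.9 CPM labelled WT and a log2 ratio of 0.91 (0.76 to 1.08). Pdia6 (ENSMUSG00000020571), a disulphide isomerase, stood at 391 CPM labelled KO and 241 CPM labelled WT (log2 ratio 0.70), and Hyou1 (ENSMUSG00000032115), an Hsp110-type chaperone that exchanges the nucleotide of BiP, at 90.1 CPM labelled KO and 56.4 CPM labelled WT (0.67). Manf (ENSMUSG00000032575), a secreted factor held by BiP, stood at 424 CPM labelled KO and 271 CPM labelled WT (0.65). Dnajb11 (ENSMUSG00000004460), a J-domain partner of BiP, stood at 141 CPM labelled KO and 89.8 CPM labelled WT (0.64). BiP and several of its partners were higher, by between 1.56-fold for Dnajb11 and 1.69-fold for Hspa5.

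The other 7 chaperones lay between 0.21 and 0.51 and were not called. Hsp90b1, the Hsp90 of the endoplasmic reticulum (GRP94), stood at 1652 CPM labelled KO and 1162 CPM labelled WT, a log2 ratio of 0.51 (0.47 to 0.55). Calr, a lectin chaperone for glycoproteins, stood at 729 CPM labelled KO and 568 CPM labelled WT (0.36), and Pdia3, the isomerase that works with it, at 955 CPM labelled KO and 745 CPM labelled WT (0.36). Both members of the glycoprotein cycle had smaller ratios than Hspa5. Dnajc3, an inhibitor of PERK and partner of BiP, stood at 450 CPM labelled KO and 349 CPM labelled WT (0.36), Dnajb9, a J-domain protein that restrains IRE1, at 158 CPM labelled KO and 124 CPM labelled WT (0.35), and Pdia4, a further isomerase, at 156 CPM labelled KO and 129 CPM labelled WT (0.27). Sdf2l1, part of BiP complexes, stood at 48.8 CPM labelled KO and 42.0 CPM labelled WT (0.21).

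Sensors and transcription factors were less uniform, with 1 of 4 called higher. Atf6 (ENSMUSG00000026663) stood at 253 CPM labelled KO and 167 CPM labelled WT, and its log2 ratio of 0.59 (0.50 to 0.69) lay just past the 1.5-fold line. Ern1, which encodes IRE1, stood at 107 CPM labelled KO and 73.4 CPM labelled WT (0.54), and Xbp1, whose messenger IRE1 splices, at 302 CPM labelled KO and 218 CPM labelled WT (0.46). The counts do not separate spliced from unspliced Xbp1. Eif2ak3, which encodes PERK, had the lowest ratio of the chaperone part, with 38.4 CPM labelled KO and 46.6 CPM labelled WT (-0.27, -0.49 to -0.06).

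The degradation genes did not share a direction. Syvn1 (ENSMUSG00000024807), the ubiquitin ligase HRD1, stood at 24.7 CPM labelled KO and 13.3 CPM labelled WT, a log2 ratio of 0.85 (0.55 to 1.25). Its partner Sel1l stood at 95.2 CPM labelled KO and 92.1 CPM labelled WT (0.05), and Edem1, a lectin that hands glycoproteins to degradation, at 66.1 CPM labelled KO and 55.9 CPM labelled WT (0.24). Herpud1, a scaffold of the ligase complex, stood at 99.6 CPM labelled KO and 112 CPM labelled WT (-0.17, -0.31 to -0.04). Summed, the 4 degradation genes had a log2 ratio of 0.06 (-0.02 to 0.14), against 0.57 (0.55 to 0.59) for the 13 chaperones and folding factors.

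The ERSE letters can be set beside these ratios as a description. Of the 7 genes that hold them 4 were called higher (Hspa5, Pdia6, Creld2 and Syvn1), with log2 ratios from 0.36 to 0.91 and a median of 0.70. Of the 11 matched chaperone members without them 1 was called higher (Dnajb11), with ratios from -0.27 to 0.64 and a median of 0.27. Atf6, Hyou1 and Manf, which have no window here, were all called higher and stand in neither count, and Syvn1 passed the floors through the library labelled KO alone. In tenocyte-like cells the counts were 5 of 7 and 4 of 11. The CARE letters in the ATF4 part did not go with higher ratios, though few members with them passed the floors. Of the members with CARE letters 1 of 2 past the floors was called higher in FAP-like cells (median 0.34), namely Asns, which passed through the library labelled KO alone. Of the matched members without them 4 of 9 were called (median 0.49), and Mthfd2, 1 of these 4, also passed through the library labelled KO alone. Slc7a5, which has no window here, was called higher and stands in neither count. It too passed through the library labelled KO alone in FAP-like cells. In tenocyte-like cells the counts with and without CARE letters were 0 of 1 and 7 of 10. The 1 was Slc7a11, which passed the floors through the library labelled WT alone and could not be called higher. Shmt2, 1 of the 7, passed through the library labelled KO alone.

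Within the ATF4 part the amino acid carriers stood out. Slc7a1 (ENSMUSG00000041313), the cationic carrier for arginine and lysine, stood at 111 CPM in FAP-like cells labelled KO and 33.6 CPM in those labelled WT, a log2 ratio of 1.69 (1.52 to 1.93). Slc7a5 (ENSMUSG00000040010), the light chain of the LAT1 carrier for leucine and other large neutral amino acids, stood at 44.5 CPM labelled KO and 16.9 CPM labelled WT (1.35, 1.11 to 1.70). Slc3a2 (ENSMUSG00000010095), the heavy chain CD98 that pairs with it, stood at 165 CPM labelled KO and 81.9 CPM labelled WT (1.00, 0.87 to 1.15). Both chains of LAT1 were called higher, and the ratio of Slc7a1 lay above 99.2% of the genes tested. Slc7a11, the light chain of the cystine carrier, which pairs with the same heavy chain, lay below 0, with 76.0 CPM labelled KO and 96.5 CPM labelled WT (-0.34, -0.49 to -0.19).

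**Figure D2:**
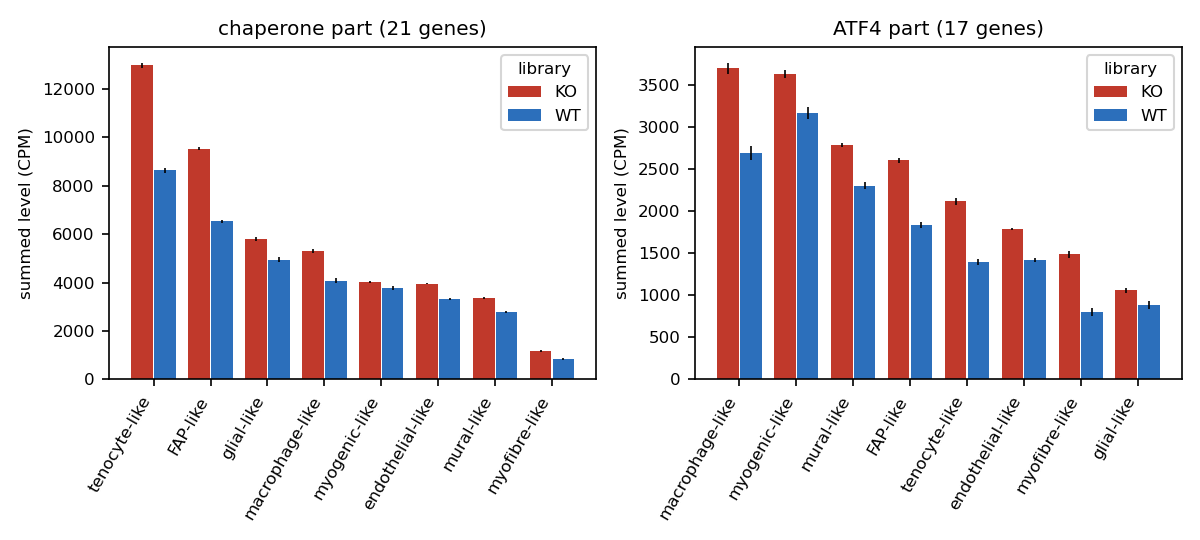
Summed level of the chaperone part and of the ATF4 part (y axis, CPM of the class) in each of 8 cell classes, with the library labelled KO on the left of each pair. Error bars are exact 95% Poisson intervals for counting error alone. Tenocyte-like and FAP-like cells have the 2 highest chaperone sums, and the bar of the library labelled KO is the higher one in all 16 pairs.

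Of the enzymes, Asns (ENSMUSG00000029752), asparagine synthetase, stood at 26.7 CPM labelled KO and 12.7 CPM labelled WT, a log2 ratio of 1.02 (0.73 to 1.44). Mthfd2 (ENSMUSG00000005667), a mitochondrial enzyme of the folate cycle, stood at 32.4 CPM labelled KO and 16.6 CPM labelled WT (0.93, 0.66 to 1.28). Phgdh, the first enzyme of serine synthesis, stood at 20.3 CPM labelled KO and 22.6 CPM labelled WT (-0.15, -0.46 to 0.15). Psat1, the next enzyme of that pathway, stood at 15.9 CPM labelled KO and 8.80 CPM labelled WT, below the floors (0.78, 0.42 to 1.30). Shmt2, the mitochondrial serine hydroxymethyltransferase, stood at 15.2 CPM labelled KO and 9.95 CPM labelled WT, also below them (0.57, 0.20 to 1.04). Phgdh was not called, and Psat1 and Shmt2 could not be, since they stayed under 20 CPM.

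Regulators summed to a log2 ratio of 0.45 (0.42 to 0.48), against 0.79 (0.71 to 0.88) for the carriers. Atf4 itself stood at 400.3 CPM labelled KO and 285 CPM labelled WT (log2 ratio 0.49), although ATF4 is controlled mainly through translation, which these counts do not measure. Cebpb (ENSMUSG00000056501), a partner of ATF4 that also answers inflammatory signals, stood at 889 CPM labelled KO and 583 CPM labelled WT (0.61, 0.56 to 0.66) and was the 1 regulator called higher. It held 34.1% of the UMIs of the ATF4 part in the library labelled KO and 31.7% in the library labelled WT, and without it the part had a log2 ratio of 0.45. Atf5, a related factor, stood at 303 CPM labelled KO and 228 CPM labelled WT (0.41), and Ppp1r15a, the phosphatase subunit GADD34 that reverses eIF2 alpha phosphorylation, at 426 CPM labelled KO and 355 CPM labelled WT (0.26). Ddit4, an inhibitor of mTORC1, stood at 65.5 CPM labelled KO and 75.6 CPM labelled WT (-0.20, -0.37 to -0.04).

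The other 3 regulators were below the floors. Trib3, a pseudokinase that damps ATF4, stood at 6.17 CPM labelled KO and 5.91 CPM labelled WT, and Sesn2, a leucine sensor, at 9.95 CPM labelled KO and 5.62 CPM labelled WT. Chac1, which degrades glutathione, had 2 UMIs in the library labelled KO and 0 in the library labelled WT, where 3 UMIs are the limit that a count of 0 allows. Sesn2 had a log2 ratio of 0.73 (0.28 to 1.39) and could not be called, since it stayed under 20 CPM. Trib3 (0.05, -0.52 to 0.66) and Chac1 give no ratio that can be read at this depth.

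Other genes of the same pathways did not all follow. Among 28 further endoplasmic reticulum folding and degradation genes past the floors 1 was called lower and 0 higher, and the median ratio was 0.16. Erlec1, a lectin of degradation, had a log2 ratio of -0.80, Sec61a1, the channel of the membrane, 0.53, and Edem2, a mannosidase, -0.51. Edem2 (14.9 CPM labelled KO and 21.6 CPM labelled WT) passed the floors through the library labelled WT alone and could only come out lower. Among 12 further ATF4 and CHOP genes 2 were higher and 1 lower, namely Mthfd1l of the mitochondrial folate cycle at 1.52, Eif4ebp1, a repressor of translation, at 0.76 and Nupr1, a stress-induced nuclear protein, at -0.72. Mthfd1l (41.7 CPM labelled KO and 13.8 CPM labelled WT) passed the floors through the library labelled KO alone and could only come out higher. Ddit3, which encodes CHOP, was left out because 2 identifiers carry that symbol.

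Cytosolic tRNA synthetases, many of which are ATF4 targets, were the neighbouring list nearest to the members. Of 17 past the floors 8 were higher and 0 lower, with a median of 0.58, led by Iars1 at 75.6 CPM labelled KO and 35.2 CPM labelled WT (log2 ratio 1.08), Hars1 (0.96) and Tars1 (0.90). Of these 17 genes 3 passed the floors through the library labelled KO alone, among them Vars1, 1 of the 8 called. Heat shock genes of cytosol and mitochondria split, with 3 of 13 higher and 3 lower. The higher ones were Hspa9 (1.30) and Hspd1 (0.99), both of the mitochondrial matrix, and Hspb1 (1.02), a small heat shock protein. The lower ones, chosen after their values were seen, were Hspa1a, Hspa1b and Dnajb1 of the cytosolic response, from -0.91 to -0.83. Dissociation stress genes, a list of early response genes that enzymatic digestion induces, had 2 of 15 higher, Ier3 (0.71) and Nfkbia (0.68), while Nr4a1 stood at 0.35. Their summed level was 27634 CPM in FAP-like cells labelled KO and 28513 CPM in those labelled WT, a log2 ratio of -0.05.

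The gap varied with the depth of the barcodes. FAP-like cells had medians of 10888 UMIs in the library labelled KO and 5824.5 UMIs in the library labelled WT. Among barcodes of 10000 to 20000 UMIs (434 labelled KO and 81 labelled WT) the chaperone part stood at 10110 CPM labelled KO and 6688 CPM labelled WT, a log2 ratio of 0.60, and at 5000 to 10000 UMIs (236 labelled KO and 636 labelled WT) at 8411 CPM labelled KO and 6728 CPM labelled WT, or 0.32. At 2000 to 5000 UMIs (96 labelled KO and 354 labelled WT) the chaperone ratio was 0.06, and under 2000 UMIs (116 labelled KO and 64 labelled WT) it was -0.14. The chaperone part was close between the libraries in shallow barcodes and higher in the library labelled KO in deep ones. For the ATF4 part the ratios from the shallowest to the deepest of these bins were 0.92, -0.15, 0.47 and 0.69, with no steady order. A low-UMI cluster found in the library labelled KO alone, described below, had 91 FAP-like barcodes. Its part in the ratios under 2000 UMIs was not tested.

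**Figure D3:**
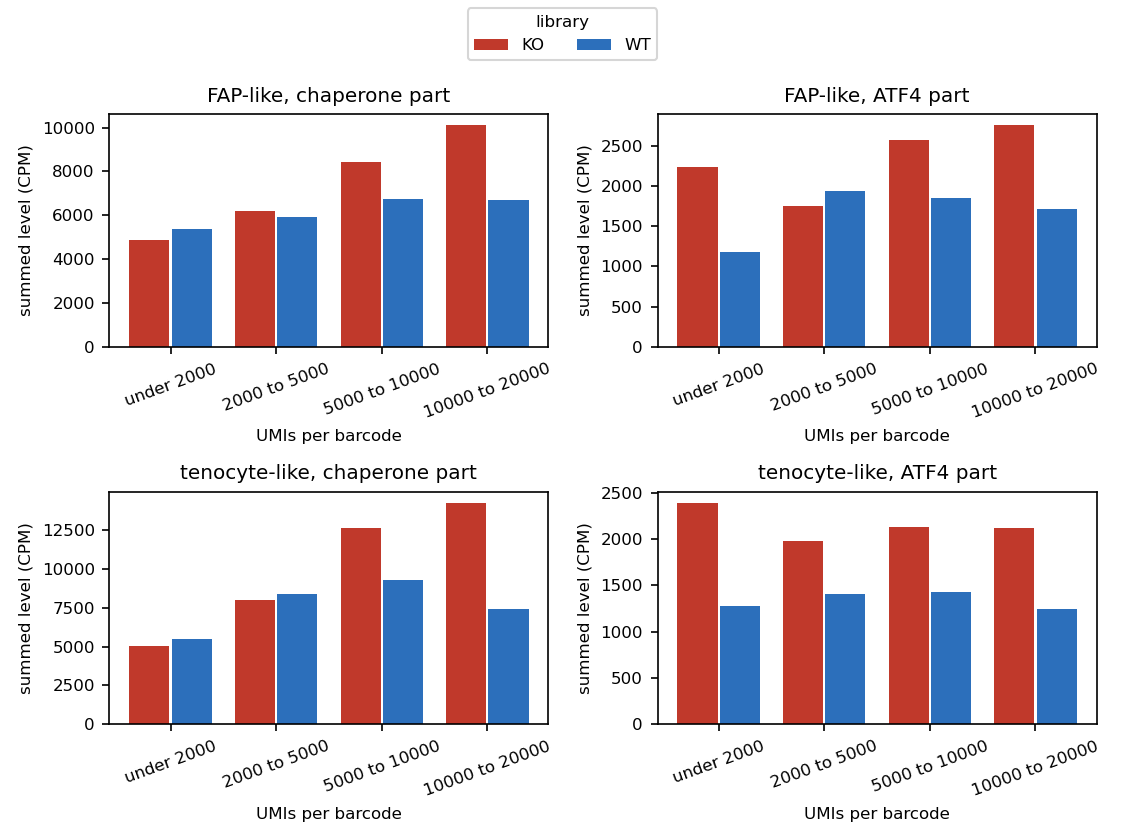
Summed level of each part (y axis, CPM) in FAP-like and tenocyte-like barcodes split by their number of UMIs (x axis), with the library labelled KO on the left of each pair. Bars are sums over all barcodes of a bin and carry no error bars. In the chaperone panels the bars are close under 5000 UMIs and apart above it, while in the tenocyte-like ATF4 panel the bar of the library labelled KO is higher in all 4 bins.

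Per barcode, the chaperone part took a median of 0.791% of UMIs in FAP-like cells labelled KO (quartiles 0.506 and 1.10%) and 0.575% in those labelled WT (0.430 and 0.796%). The ATF4 part took 0.236% in those labelled KO (0.161 and 0.326%) and 0.161% in those labelled WT (0.106 and 0.233%). With each barcode thinned to 2000 UMIs, which left out 116 shallower ones labelled KO and 64 labelled WT, the medians were 0.80% labelled KO and 0.60% labelled WT for the chaperone part, and 0.25% labelled KO and 0.15% labelled WT for the ATF4 part. The distributions overlapped widely, and the 5th percentiles of the chaperone share nearly met, at 0.243% labelled KO and 0.238% labelled WT, whereas the 95th percentiles were 1.83% labelled KO and 1.19% labelled WT.

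**Figure D4:**
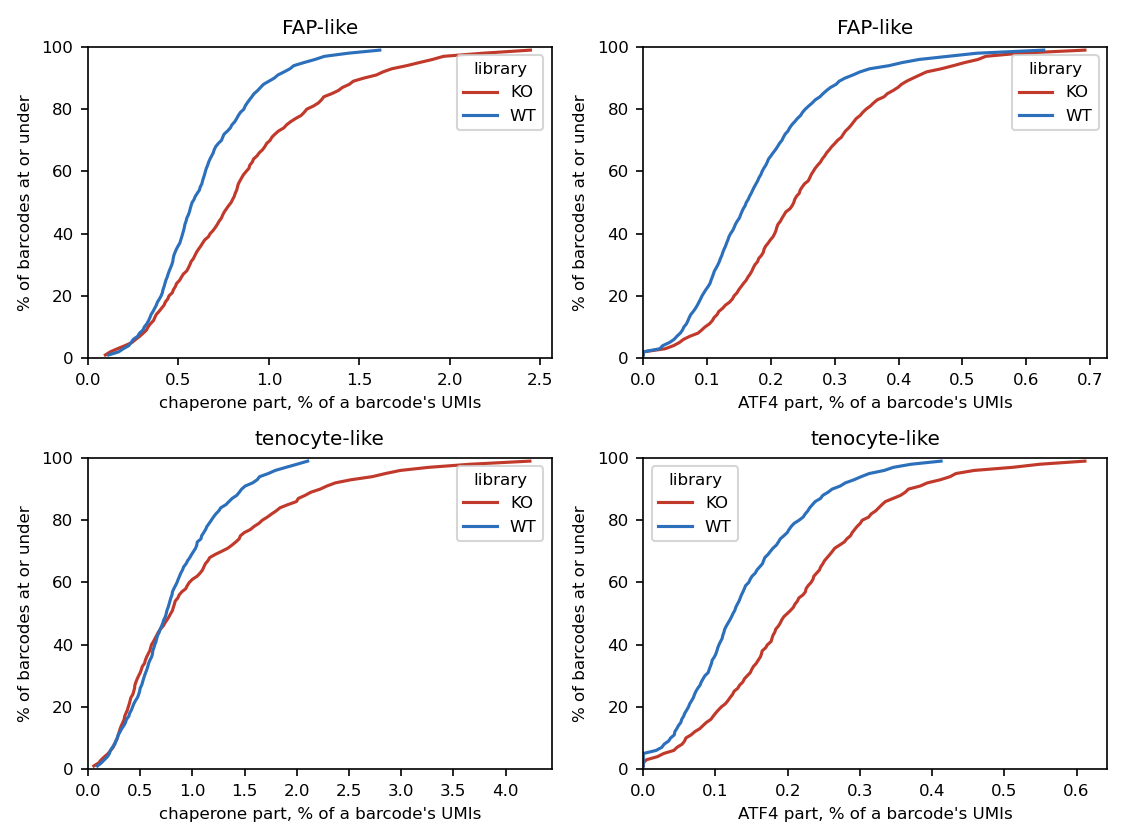
Share of each barcode's UMIs taken by each part (x axis, percent) against the percentage of barcodes at or under that share (y axis), for FAP-like and tenocyte-like cells of both libraries, without thinning. The curve of the library labelled KO lies to the right over most of the range, except for the chaperone part in tenocyte-like cells, where the curves cross near the middle and part at the top.

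FAP-like barcodes with a UMI of F2rl1, the gene of the protease-activated receptor PAR2, numbered 207 labelled KO and 20 labelled WT. In the barcodes without one the chaperone part stood at 9275 CPM labelled KO and 6549 CPM labelled WT, a log2 ratio of 0.50, and the ATF4 part at 2580 CPM labelled KO and 1830 CPM labelled WT. Leaving out the barcodes with F2rl1 left most of the gap in both parts.

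A cluster of 2872 low-UMI barcodes (median 1349 UMIs) made up 15.5% of the barcodes kept in the library labelled KO and had no counterpart in the other. It had 91 of the FAP-like barcodes, 113 of the tenocyte-like and 773 of the endothelial-like. Its chaperone sum was 4915 CPM and its ATF4 sum 2536 CPM, and without it the FAP-like chaperone ratio was 0.55. Markers of 12 other cell types, which doublets and free RNA can carry, summed per list to between 0.737 and 287 CPM in FAP-like cells labelled KO and between 0.288 and 205 CPM in those labelled WT, higher in the library labelled KO for 11 lists. Neutrophil markers stood at 30.8 CPM labelled KO and 0.433 CPM labelled WT and erythroid markers at 83.7 CPM labelled KO and 8.07 CPM labelled WT. Both lists were also higher in the library labelled KO in the other 7 classes, with neutrophil markers between 16.2 and 121 CPM labelled KO and between 0.624 and 86.8 CPM labelled WT. Neutrophil-like barcodes had the highest ATF4 sums, at 5446 CPM labelled KO and 6885 CPM labelled WT, and the part of these markers in the members' differences was not tested.

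Tenocyte-like cells (644 labelled KO and 675 labelled WT) had the highest chaperone sums and the most members called. The chaperone part stood at 12974 CPM labelled KO and 8640 CPM labelled WT (log2 ratio 0.59, 0.57 to 0.61), and the ATF4 part at 2121 CPM labelled KO and 1398 CPM labelled WT (0.60, 0.55 to 0.65). Of 21 chaperone members 10 were higher, and of 12 ATF4 members past the floors 8 were higher, with 0 lower, against 12.9% higher and 9.06% lower of all genes tested. Shmt2, 1 of the 8, stood at 22.6 CPM labelled KO and 13.4 CPM labelled WT. It passed the floors through the library labelled KO alone and could only come out higher. Slc7a5 led, at 64.6 CPM labelled KO and 20.3 CPM labelled WT (1.63, 1.28 to 2.08), followed by Creld2 at 244 CPM labelled KO and 121 CPM labelled WT (1.00) and Syvn1 at 37.9 CPM labelled KO and 20.3 CPM labelled WT (0.87). Slc7a11 (-0.35, with 29.6% of its UMIs labelled WT in 1 barcode), Herpud1 (-0.23) and Edem1 (0.05) had the smallest ratios. In FAP-like and tenocyte-like cells alike Slc7a1, Slc7a5 and Slc3a2 were called higher, while Herpud1 lay below 0. Slc7a11 also lay below 0 in both, but in tenocyte-like cells it passed the floors through the library labelled WT alone. Its ratio there could only lie below 0. Among thinned tenocyte-like barcodes, 2.91% labelled KO (1.64 to 4.76%) and 1.65% labelled WT (0.80 to 3.02%) held a UMI of Slc7a11. A shared direction of Slc7a11 therefore cannot be read from these ratios. Ddit4 differed, at -0.20 in FAP-like cells and at 0.67 in tenocyte-like cells, where it stood at 80.4 CPM labelled KO and 50.2 CPM labelled WT.

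As in FAP-like cells, the tenocyte-like chaperone gap lay in deep barcodes. The chaperone ratio was -0.13 under 2000 UMIs, -0.07 at 2000 to 5000, 0.44 at 5000 to 10000 and 0.95 at 10000 to 20000, where the library labelled WT had 29 barcodes. ATF4 ratios were 0.91, 0.49, 0.57 and 0.77 over the same bins. The low-UMI cluster of the library labelled KO had 113 tenocyte-like barcodes, and the bin under 2000 UMIs had 129 labelled KO. The part of this cluster in the ratios of that bin was not tested. Without thinning, the median chaperone share per barcode was 0.792% labelled KO and 0.750% labelled WT, the lower quartiles were 0.438% labelled KO and 0.495% labelled WT, and 52.5% of barcodes labelled KO lay above the median of those labelled WT. Thinned medians were 0.95% labelled KO and 0.75% labelled WT, with 129 shallower barcodes labelled KO and 70 labelled WT left out. As a mean over barcodes, in place of the sum, the chaperone ratio was 0.38.

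Endothelial-like cells, the largest class with 7732 barcodes labelled KO and 3153 labelled WT, showed smaller gaps. The chaperone part stood at 3948 CPM labelled KO and 3337 CPM labelled WT (log2 ratio 0.24, 0.23 to 0.26) and the ATF4 part at 1789 CPM labelled KO and 1417 CPM labelled WT (0.34, 0.31 to 0.36). Of 18 chaperone members past the floors 0 were higher and 0 lower, and of 8 ATF4 members 2 were higher and 0 lower, against 2.48% higher and 5.42% lower of all genes tested. Cebpb stood at 157 CPM labelled KO and 90.4 CPM labelled WT (0.79), Slc7a5 at 29.6 CPM labelled KO and 18.4 CPM labelled WT (0.66), which passed the floors through the library labelled KO alone and could only come out higher, and Slc7a1 at 51.6 CPM labelled KO and 34.5 CPM labelled WT (0.57). At the low end were Pdia4 (-0.06), Xbp1 (-0.04) and Sel1l (0.03). The chaperone sum of this class was higher without any single chaperone past 1.5-fold. Dissociation stress genes had ratios above 0 in 14 of 15, with 1 called higher, a median of 0.29 and sums of 21671 CPM labelled KO and 17867 CPM labelled WT (0.28), and their part in the members' differences was not tested.

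Mural-like cells (2080 labelled KO and 1382 labelled WT) are the pericytes and smooth muscle cells around vessels. The chaperone sum was 3352 CPM labelled KO and 2785 CPM labelled WT (log2 ratio 0.27), and the ATF4 sum was 2791 CPM labelled KO and 2307 CPM labelled WT (0.27). With barcodes thinned to 2000 UMIs the ratios were 0.17 for the chaperone part and 0.04 for the ATF4 part. Dissociation stress genes had ratios above 0 in 15 of 15, with 4 called higher, a median of 0.49 and sums of 21850 CPM labelled KO and 16383 CPM labelled WT (0.42), and their part in the members' differences was not tested. In each part 1 member was higher and 0 lower, of 19 and 8 past the floors, against 4.35% higher and 6.15% lower of all genes tested. Slc7a5, the ATF4 member called, passed the floors through the library labelled KO alone and could only come out higher, at 31.1 CPM labelled KO and 13.9 CPM labelled WT (1.11). Slc7a1 and Creld2 passed in the same way. Ern1 stood at 80.1 CPM labelled KO and 47.6 CPM labelled WT (0.74) and Atf5 at 67.1 CPM labelled KO and 46.2 CPM labelled WT (0.53), whereas Sel1l (-0.13), Edem1 (0.04) and Herpud1 (0.06) were lowest.

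**Figure D5:**
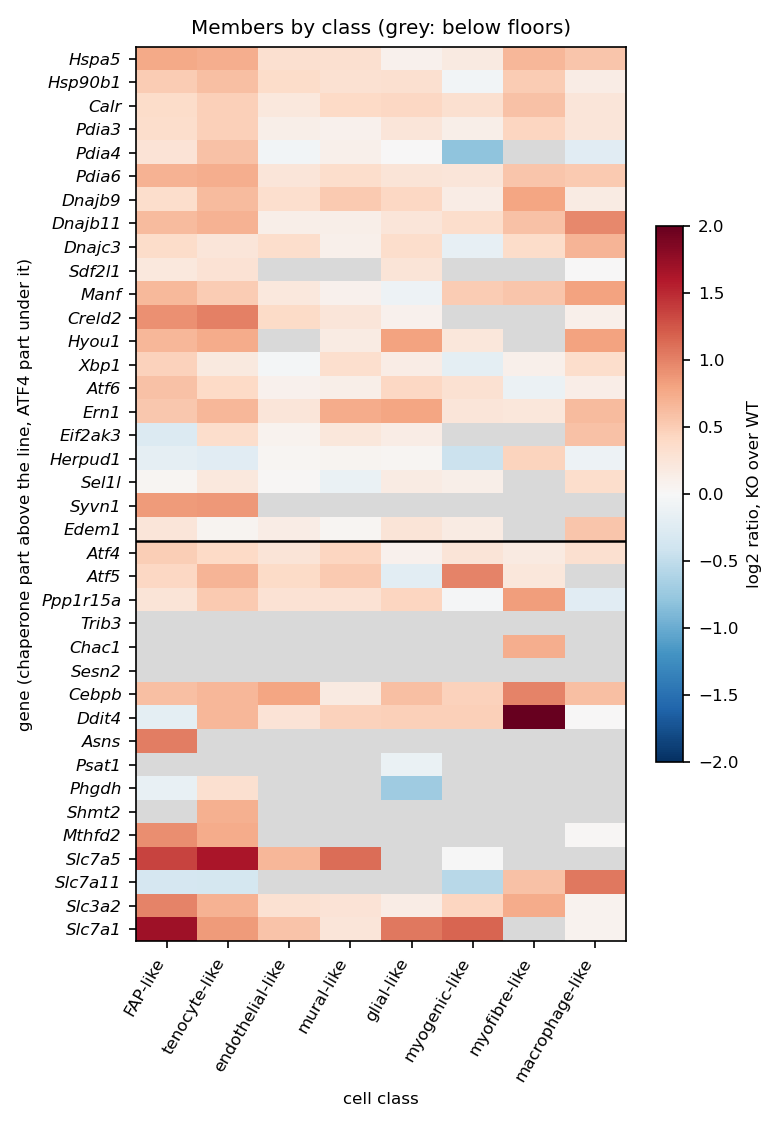
Log2 ratio, KO over WT, as colour for each member (rows) in 8 cell classes (columns). Grey cells are below the floors. Red, higher in the library labelled KO, fills most of the FAP-like and tenocyte-like columns, and the strongest blue is Pdia4 in myogenic-like cells at -0.81.

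Glial-like cells (815 labelled KO and 479 labelled WT) had chaperone sums of 5799 CPM labelled KO and 4948 CPM labelled WT (log2 ratio 0.23) and ATF4 sums of 1062 CPM labelled KO and 882 CPM labelled WT (0.27). Of 20 chaperone members 2 were higher, and of 9 ATF4 members 2 were higher and 1 lower, against 4.64% higher and 3.96% lower of all genes tested. Slc7a1, which passed the floors through the library labelled KO alone and could only come out higher, stood at 36.2 CPM labelled KO and 16.9 CPM labelled WT (1.05). Hyou1 stood at 49.8 CPM labelled KO and 28.0 CPM labelled WT (0.81) and Ern1 at 71.3 CPM labelled KO and 41.0 CPM labelled WT (0.78). The serine enzyme Phgdh was the one member called lower, at 23.8 CPM labelled KO and 39.7 CPM labelled WT (-0.71, -1.20 to -0.26). Psat1 stood at 49.8 CPM labelled KO and 54.7 CPM labelled WT (-0.13), its one class past the floors, and Atf5 at 25.7 CPM labelled KO and 30.0 CPM labelled WT (-0.21).

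Myogenic-like cells, which include satellite cells (827 labelled KO and 612 labelled WT), had the smallest gaps of the 8 classes. Chaperone sums were 4028 CPM labelled KO and 3759 CPM labelled WT (log2 ratio 0.10, 0.06 to 0.13), and ATF4 sums were 3639 CPM labelled KO and 3172 CPM labelled WT (0.20). Of 17 chaperone members 0 were higher and 1 lower, and of 9 ATF4 members 2 were higher and 0 lower, against 11.9% higher and 10.2% lower of all genes tested. The lower one was Pdia4, at 24.3 CPM labelled KO and 43.3 CPM labelled WT (-0.81, -1.20 to -0.46). Slc7a11 had its highest level of the 8 classes here, at 444 CPM labelled KO and 653 CPM labelled WT (-0.56), and Herpud1 stood at 126 CPM labelled KO and 170 CPM labelled WT (-0.42). Slc7a1 (73.2 CPM labelled KO and 32.1 CPM labelled WT, 1.17), Atf5 (71.5 CPM labelled KO and 35.5 CPM labelled WT, 0.99) and Manf (87.7 CPM labelled KO and 61.5 CPM labelled WT, 0.50) were at the high end.

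Myofibre-like barcodes (982 labelled KO and 557 labelled WT), which hold fragments or RNA of muscle fibres, had the lowest chaperone sums, at 1192 CPM labelled KO and 845 CPM labelled WT (log2 ratio 0.50), and the largest ATF4 ratio, at 1488 CPM labelled KO and 803 CPM labelled WT (0.89, 0.79 to 0.99). Of 13 chaperone members past the floors 3 were higher, and of 8 ATF4 members 5 were higher, with 0 lower, against 9.59% higher and 5.28% lower of all genes tested. Ddit4 had the largest ratio of any member past the floors in the 8 classes, at 254 CPM labelled KO and 63.3 CPM labelled WT (1.99, 1.68 to 2.35). Cebpb stood at 653 CPM labelled KO and 326 CPM labelled WT (1.00) and Ppp1r15a at 157 CPM labelled KO and 87.7 CPM labelled WT (0.83). Chac1 passed the floors in this class alone, at 73.5 CPM labelled KO and 44.2 CPM labelled WT (0.72). Atf6 (-0.11), Xbp1 (0.10) and Atf4 (0.18) were lowest. Dissociation stress genes were also higher in this class, with 7 of 15 called and sums of 5720 CPM labelled KO and 3797 CPM labelled WT, and their part in the ATF4 result was not tested. The chaperone ratio of this class turned with depth, at 1.97 under 2000 UMIs (451 labelled KO and 298 labelled WT), -0.03 at 2000 to 5000 and -0.71 at 5000 to 10000 (114 labelled KO and 35 labelled WT). It ranged from 0.002 to 1.05 over other ways of processing, near 0 with the strict cell filter or thinning. The ATF4 ratio was 1.06, 0.74 and 0.42 over the same bins. Dnajb11, 1 of the 3 chaperone members called, passed the floors through the library labelled KO alone.

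Macrophage-like cells (253 labelled KO and 260 labelled WT) differed in make-up between the libraries. Macrophage markers summed to 2787 CPM in those labelled KO and 6258 CPM in those labelled WT. Leiden clusters were made from all kept barcodes, apart from this gate, so their macrophage clusters are not subsets of the class. The one led by Lyz2, Ctss and Cytip held 195 barcodes labelled KO and 84 labelled WT. The one led by H2-Aa, Cd74 and H2-Ab1 held 154 labelled KO and 283 labelled WT. The part of this make-up in the members' differences was not tested. The class had chaperone sums of 5305 CPM labelled KO and 4074 CPM labelled WT (log2 ratio 0.38) and ATF4 sums of 3702 CPM labelled KO and 2691 CPM labelled WT (0.46). Of 20 chaperone members 5 were higher, and of 8 ATF4 members 2 were higher, with 0 lower, against 15.0% higher and 8.68% lower of all genes tested. Slc7a11 stood at 263 CPM labelled KO and 125 CPM labelled WT (1.06, 0.84 to 1.31), against -0.34 in FAP-like and -0.56 in myogenic-like cells. Its tenocyte-like ratio of -0.35 could only lie below 0, since it passed the floors there through the library labelled WT alone. Dnajb11 stood at 125 CPM labelled KO and 63.7 CPM labelled WT (0.96) and Hyou1 at 48.3 CPM labelled KO and 27.1 CPM labelled WT (0.81). Pdia4, Ppp1r15a (both -0.22) and Herpud1 (-0.10) were lowest. Cebpb, a factor of myeloid cells, supplied most UMIs of the ATF4 part here, at 2584 CPM labelled KO and 1711 CPM labelled WT (0.59).

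Across the 8 classes some members kept a direction and others did not. Hspa5 had a ratio above 0 in all 8 classes, from 0.09 to 0.76, and was called higher in 3. Its level was highest in tenocyte-like cells, at 4967 CPM labelled KO and 3004 CPM labelled WT, and lowest in myofibre-like barcodes, at 294 CPM labelled KO and 185 CPM labelled WT. Cebpb was called higher in 6 classes, and Slc7a1 in 4 of the 7 where it passed the floors. In glial-like cells, 1 of these 4, Slc7a1 passed through the library labelled KO alone and could only come out higher. The same holds for mural-like cells, where it was not called. Slc7a5 was called higher in 4 of 5 classes, though in FAP-like, endothelial-like and mural-like cells it passed the floors through the library labelled KO alone and could only come out higher, and stood at 85.9 CPM labelled KO and 86.7 CPM labelled WT in the fifth, myogenic-like cells. Herpud1 lay from -0.42 to 0.45 and was called in none, although it carries the ERSE-II letters. Asns passed the floors in FAP-like cells alone. Heat shock genes of cytosol and mitochondria summed to log2 ratios of 0.58 in tenocyte-like, 0.51 in myofibre-like, 0.44 in endothelial-like and 0.44 in mural-like cells. Their sums had ratios of 0.24 in glial-like, 0.19 in myogenic-like, 0.13 in FAP-like and 0.07 in macrophage-like cells. The part of these genes in the members' differences was not tested. The classes share 1 library each per genotype, so these ratios are not independent of one another.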

How the data were processed

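The deposited files hold raw counts of UMIs per gene and barcode, which the authors made with Cell Ranger (10x GEM-X 3' chemistry, per the labels). The submitters' processing notes name version 9.0.0 and build mm10. Per the file headers the version was 9.0.0 for KO and 8.0.0 for WT. Barcodes as deposited had at least 500 UMIs.

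Barcodes were kept with 500 or more genes and a mitochondrial share up to 10%. No doublet caller was run. A barcode joined 1 of 13 classes when at least 2 of its marker genes and 3 marker UMIs were present, at 2 times the library's mean share (1 time for endothelial), with a lead of 2 genes over the next class. A further 647 barcodes labelled KO and 201 labelled WT met several classes and were set aside as mixed, and 2983 labelled KO and 1428 labelled WT met none. Classes with at least 100 barcodes in each library were compared, 8 in all. Because the gate uses the mean of each library, its thresholds differ between libraries. Counts were summed per class and library and scaled to CPM. Intervals are exact Poisson for levels and exact conditional binomial for ratios, with no CPM added for the ratios' intervals, and cover counting error alone.

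Named genes are all members in FAP-like cells, in other classes the 3 largest and 3 smallest ratios past the floors plus members that a comparison across classes turns on, and the 3 genes of each other list furthest from 0. The members and lists were chosen with earlier results of these data known. Gene symbols follow the files. RefSeq promoter windows (GRCm38.p6) gave sequences, and GENCODE M21 gave exons. Python 3.11.15, numpy 2.4.6, scipy 1.17.1 and leidenalg 0.10.2 were used. On simulated counts of FAP-like cells the procedure called 100% of genes altered 2- or 3-fold (50 genes for each fold and direction) and 0.0152% of 6574 unaltered genes. These counts held Poisson error alone around 1 profile shared by both libraries, and the altered genes lay well above the 20 CPM floor. They do not measure how often differences between mice or libraries lead to a call. Alternatives changed the cell filter, gate, scaling, weighting, depth, floors, threshold and added constant.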

Additional observations from a re-analysis of the deposited data

Results flagged for a closer look

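Pdia4 was called in opposite directions in 2 cell classes, with a KO-over-WT log2 ratio of 0.59 in tenocyte-like cells and -0.81 in myogenic-like cells. The difference between the classes was not tested, since each has 1 library per genotype.

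Barcodes outside the 8 compared classes also showed differences beyond counting error. In perineurial-like cells (96 barcodes labelled KO and 122 labelled WT) the chaperone part had a log2 ratio of 0.99, at 8157 CPM labelled KO and 4109 CPM labelled WT, and the ATF4 part had 0.66, at 3073 CPM labelled KO and 1945 CPM labelled WT. The chaperone part had a log2 ratio of 0.40 in T-cell-like cells (120 barcodes labelled KO and 99 labelled WT) and of 0.16 in B-cell-like cells (72 labelled KO and 105 labelled WT). The ATF4 part was lower in neutrophil-like cells labelled KO, at 5446 CPM labelled KO and 6885 CPM labelled WT, a log2 ratio of -0.34. Among barcodes that met no class the ATF4 part had a log2 ratio of 0.53, at 2071 CPM labelled KO and 1435 CPM labelled WT, while the chaperone part had -0.04. These barcodes had medians of 1570 UMIs in the library labelled KO and 1934 UMIs in the library labelled WT. The cluster of 2872 low-UMI barcodes found in the library labelled KO alone had sums of 4915 CPM for the chaperone part and 2536 CPM for the ATF4 part. The part of this cluster in the differences among barcodes with no class was not tested.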

How the results depend on the processing

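Over 12 alternatives, 2 of them chosen after seeing the data, the FAP-like chaperone ratio of 0.55 was 0.57 with Leiden clusters, 0.50 without barcodes with an F2rl1 UMI, 0.50 with the median gene ratio set to 1, 0.53 without mitochondrial and ribosomal protein genes, 0.44 as a mean over barcodes, 0.51 thinned to 2000 UMIs and 0.60 with 1 gate threshold in both libraries. The FAP-like ATF4 ratio of 0.50 was 0.57, 0.46, 0.46, 0.45 and 0.54 with clusters, the median set to 1, the mean over barcodes, thinning and 1 threshold. Of 8 chaperone members called higher, the number was 5 as a mean over barcodes and 0 at 2-fold. Of 6 ATF4 members called, the number was 3 when thinned, 3 at a floor of 50 CPM and 3 at 2-fold. The endothelial-like chaperone ratio of 0.24 was 0.22 with the strict cell filter, 0.22 with the median set to 1, 0.22 without mitochondrial and ribosomal protein genes, 0.27 as a mean and 0.19 thinned, and the ATF4 ratio of 0.34 was 0.30, 0.40 and 0.25 with the strict filter, the mean and thinning. In other classes the tenocyte-like chaperone ratio of 0.59 was 0.38 as a mean over barcodes, and thinning gave 0.04 for the mural-like ATF4 ratio of 0.27 and 0.17 for the mural-like chaperone ratio of 0.27. Of 59 called values of a member in a class, 58 kept their direction in every alternative run and 24 stayed past 1.5-fold in each. The exception was Hspa5 in myofibre-like barcodes, at -0.00502 with the strict cell filter, and the cause was not tested. No paired analysis was possible because each genotype has 1 library. Depth limits genes such as Chac1 and Trib3, and the levels of these and of Sesn2 in FAP-like cells are below the floors.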
